A study of Mus musculus with 6 samples.

Results

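The peaks of the 2 input libraries of a STRAP eCLIP series were compared with each other. STRAP is a WD40 repeat protein that the study linked to the spliceosome, and eCLIP crosslinks proteins to RNA with ultraviolet light, pulls down 1 protein and sequences the RNA that comes with it. An input is the same lysate taken through size selection on a gel and membrane without the pull-down, so its peaks are places where reads pile up regardless of STRAP. All deposited peaks were used. The library labelled embryo input held 2780 peaks and the library labelled embryoid body (EB) input held 1999, which is 4779 of the 10748 peaks of the series. A peak counted as shared where it overlapped a peak of the other input by at least 1 base. By this rule 741 embryo-labelled and 739 EB-labelled peaks were shared, while 2039 were in the embryo-labelled input only and 1260 in the EB-labelled input only.

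Both groups are labelled wild type and of strain C57BL/6. The embryo libraries are labelled prenatal day 9.5. The EB libraries are labelled 9-day-old aggregates derived from embryonic stem cells, grown first without LIF and then in N2B27 medium with bFGF, a culture that the study used to direct cells towards neuroectoderm. Each input group is 1 library, so no spread between replicates exists and no test was made. Intervals below are 95% exact intervals and cover counting error only. PCR copies are not independent molecules.

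Input peaks come from several sources. Abundant structured RNAs such as ribosomal RNA, spliceosomal and nucleolar RNAs give peaks in any lysate, and so do sequences that occur in many copies in the genome but once in its assembly. Exonic peaks follow abundant messenger RNAs, which differ between tissues. At mid-gestation a mouse embryo holds primitive red cells that make embryonic globins, and it expresses imprinted growth genes such as Igf2 and H19. Embryonic stem cells and their early derivatives instead carry pluripotency transcripts such as Nanog, Pou5f1 and Klf2.

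The tissue labels were checked first, with markers of both tissues in all 6 libraries. The markers and gene lists were chosen with earlier results of these data known, so they give no independent check. The few exonic summits of fixed markers in the inputs lay in genes whose eCLIP peaks came from the other label. Hba-x and Nnat were the only fixed markers with an exonic summit in an input. Hba-x, the embryonic alpha-like globin, had a peak of 26 tags in the EB-labelled input and no peak in the embryo-labelled input. The eCLIP libraries placed the same gene in the embryo, with 43 tags in embryo eCLIP-1 and 54 in embryo eCLIP-2 and no peak in either EB eCLIP library. Nnat, an imprinted neural gene, followed the same pattern, with 44 tags in the EB-labelled input, 27 and 25 tags in the embryo eCLIP libraries and no peak in the other 3 libraries. Its peak also overlaps Blcap, and the peaks carry no strand. The study also measured Nnat transcripts in EBs of this culture at later days, so Nnat by itself does not separate the tissues. Of the 25 genes of a pluripotency list, 8 and 11 had a peak in the 2 EB eCLIP libraries and 0 in either embryo eCLIP library. Among the inputs, 3 of these genes had a peak in the embryo-labelled library only (Klf2, Tfcp2l1 and Esrrb) and 0 in the EB-labelled library. Over all 1850 genes with an input peak, 45.2% were in the embryo-labelled input only, so a count of 3 says little by itself. Of these 3 genes, Klf2 alone had an exonic summit, and Pou5f1 and Nanog had no peak in either input. Klf2 lies on chromosome 8, as does Itgb1 named below. Embryo-only peaks were 2.26 times as dense on chromosome 8 as on the other autosomes together. Of 34 imprinted genes, 10 and 11 had a peak in the embryo eCLIP libraries, 1 and 5 in the EB eCLIP libraries, 7 in the EB-labelled input and 0 in the embryo-labelled input. Over all genes with an input peak, 31.7% were in the EB-labelled input only. For the eCLIP libraries no share over all genes is given, so the list counts have only other lists beside them. Of 85 ribosomal protein genes, 34 and 49 had a peak in EB eCLIP and 26 and 30 in embryo eCLIP. Of 78 splicing factor genes, 26 and 27 had one in EB eCLIP and 29 and 32 in embryo eCLIP. Of a wider mesenchyme list, Itgb1 and Lamc1 had exonic summits in the embryo-labelled input only, and 0 genes were in the EB-labelled input only. Both of these peaks overlapped EB eCLIP peaks and no embryo eCLIP peak, for Itgb1 in EB eCLIP-2 only. Elsewhere in these genes, embryo eCLIP-1 had 1 peak in Itgb1 and 2 in Lamc1. Of the 30 genes of this list, 5 and 8 had a peak in the EB and 10 and 4 in the embryo eCLIP libraries. The list therefore does not separate the tissues. Intronic marker peaks were present in the embryo-labelled input for the cardiac gene Myh7 (16 tags) and the endothelial genes Pecam1 and Tek. The endothelial gene Flt1 had an intronic peak in both inputs, with 25 embryo-labelled and 13 EB-labelled tags. Nothing in the files tells which of the labels, if any, is at fault, so each library is called by its label below and every direction between the inputs is the direction of the labels. With 1 library a group, no result could be given without the library in doubt.

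The summit sequences printed here stand for the 3 sets, the stretch around the highest point of a shared peak, of a peak in the embryo-labelled input only and of a peak in the EB-labelled input only. They were read from the GRCm38.p6 reference, each on the strand of its gene, or on the forward strand where there is no gene. Capitals mark the 31 bases at the summit, whose exact copies in the genome were counted on both strands. The first 3 are shared peaks: small-subunit ribosomal RNA sequence inside the long noncoding gene Gm42418 (chr17:39847673-39847753), a repeat annotated as a coding exon of Gm10800 (chr2:98667095-98667175) and the intergenic region with the most tags (chr11:109011791-109011871).
Gm42418: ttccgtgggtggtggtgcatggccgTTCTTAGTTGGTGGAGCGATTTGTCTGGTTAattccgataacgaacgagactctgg
Gm10800: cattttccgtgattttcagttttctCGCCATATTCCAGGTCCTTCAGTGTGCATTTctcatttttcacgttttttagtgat
Intergenic: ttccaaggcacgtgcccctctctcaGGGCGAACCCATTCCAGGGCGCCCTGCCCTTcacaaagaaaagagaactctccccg

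The next 3 had a peak in the embryo-labelled input only. Klf2, a pluripotency transcription factor, lies on chromosome 8 (coding exon, chr8:72319465-72319545). Snhg12 is a noncoding host gene of small nucleolar RNAs (noncoding exon, chr4:132310193-132310273). The last is the intergenic peak of chromosome 8 with the most tags among the embryo-only peaks (chr8:71130873-71130953).
Klf2: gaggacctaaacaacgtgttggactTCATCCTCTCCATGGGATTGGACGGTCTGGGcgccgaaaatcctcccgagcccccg
Snhg12: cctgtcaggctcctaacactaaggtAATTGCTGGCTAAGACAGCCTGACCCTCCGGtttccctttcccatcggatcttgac
Intergenic: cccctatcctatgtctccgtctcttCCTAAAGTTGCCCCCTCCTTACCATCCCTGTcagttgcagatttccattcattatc

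The last 5 had a peak in the EB-labelled input only. They are H19 (noncoding exon, chr7:142577189-142577269), Hba-x (coding exon with the end of the intron before it, chr11:32277869-32277949), Sox11 (coding exon, chr12:27341607-27341687), Hnrnpu (coding exon, chr1:178337355-178337435) and an intergenic peak of chromosome Y made of a short tandem repeat (chrY:11858110-11858190).
H19: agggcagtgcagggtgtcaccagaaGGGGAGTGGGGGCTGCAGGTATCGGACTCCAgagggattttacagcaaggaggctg
Hba-x: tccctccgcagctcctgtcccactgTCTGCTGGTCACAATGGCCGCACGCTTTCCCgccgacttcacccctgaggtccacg
Sox11: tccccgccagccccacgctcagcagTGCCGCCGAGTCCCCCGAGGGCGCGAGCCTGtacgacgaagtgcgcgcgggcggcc
Hnrnpu: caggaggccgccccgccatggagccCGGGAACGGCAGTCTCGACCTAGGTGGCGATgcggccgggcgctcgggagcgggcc
Intergenic: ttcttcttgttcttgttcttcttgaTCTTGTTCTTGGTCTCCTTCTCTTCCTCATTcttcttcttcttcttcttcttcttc

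All of these stretches had 1 copy in the assembled chromosomes except those of Gm42418 and Gm10800, which had 2 each.

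The inputs were far deeper than the eCLIP libraries. The embryo-labelled input held 6289516 tags after duplicate removal and the EB-labelled input 6825190, against 136935 to 228422 in the 4 eCLIP libraries. Peaks took up a small part of these reads, 0.989% of the tags in the embryo-labelled and 0.754% in the EB-labelled input. The smallest peak had 10 tags in both inputs, so a gene without a peak may still hold tags.

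The shared peaks were the strong ones. They made up 26.7% of the embryo-labelled list (interval 25 to 28.3%) and 37.0% of the EB-labelled list (34.8 to 39.1%). A shared peak had a median of 18 tags in the embryo-labelled and 16 in the EB-labelled input, whereas peaks of 1 input only had a median of 11 tags in both. Of the embryo-labelled peaks with 10 or 11 tags, 9.87% were found in the EB-labelled input, against 92.98% of those with 100 tags or more. In the other direction the shares were 15.4% and 98.4%. In each class below 20 tags the intervals of the lists did not overlap. The embryo-labelled list is longer, which lowers its share, and with equal numbers of peaks the shares of the lists were 34.1% and 34.0%. Between 15 and 19 tags, 37.5% of embryo-labelled peaks (32.2 to 43.0%) and 59.5% of EB-labelled peaks (53.3 to 65.6%) were found in the other library. Most of the peaks in 1 input only lay at the detection limit: 58.7% of the embryo-labelled and 59.4% of the EB-labelled ones had 10 or 11 tags.

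**Figure D1:**
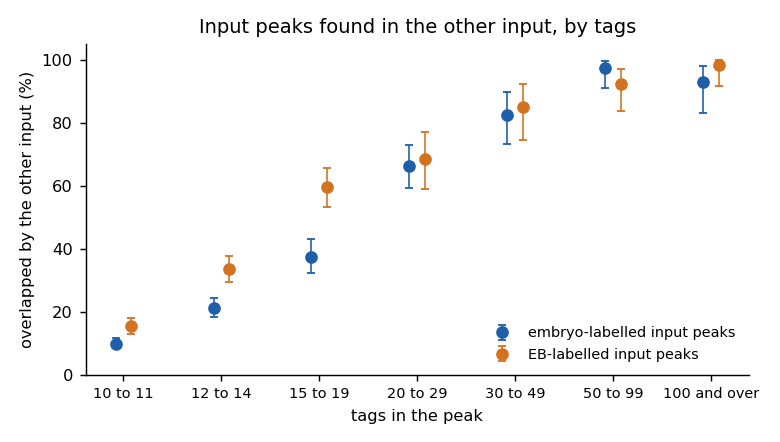
Share of input peaks (y axis, %) that a peak of the other input overlaps by at least 1 base, by the number of tags in the peak (x axis). Points are shares of each input's peaks and bars are 95% exact intervals for counting error. The shares are 9.87% and 15.4% at 10 or 11 tags, 97.4% and 92.2% at 50 to 99 tags and 93.0% and 98.4% at 100 tags and over.

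Merging the peaks of both inputs gave 738 shared regions, and the tags in them were close. The median difference between the inputs was -0.12 on the log2 scale of tags per 1000000 (EB-labelled over embryo-labelled, quartiles -0.47 and 0.10). The region with the most tags lay in Gm42418 (chr17:39842615-39848986), with 4787 embryo-labelled and 4229 EB-labelled tags, or 761 and 620 tags per 1000000. Next was the mitochondrial region M:1-6589, which holds both mitochondrial ribosomal RNA genes, mt-Rnr1 and mt-Rnr2. It had 4309 and 3265 tags, and its summit lay in mt-Rnr1 in the embryo-labelled and in mt-Rnr2 in the EB-labelled input. These ribosomal regions differed by -0.30 (interval -0.36 to -0.24) and -0.52 (-0.58 to -0.45) on the log2 scale.

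The other strong shared regions lay in repeat-derived gene models, on unplaced contigs, in introns and between genes. Gm21738 held 870 embryo-labelled and 1076 EB-labelled tags, Gm10800 held 480 and 480, Gm10801 held 269 and 284, and Gm10717 held 248 and 304. The intergenic region of chromosome 11 printed above had 439 and 446 tags. The long noncoding gene 2700054A10Rik held 629 and 648 tags in shared peaks. Shared regions within introns had 310 and 302 tags in Cdk8, which encodes a Mediator kinase, 243 and 253 in Filip1l, and 152 and 161 in Jarid2, a component of Polycomb complexes. Unplaced contigs held 27 shared peaks with a median of 86 tags in the embryo-labelled and 126 in the EB-labelled input. The 10 strongest shared peaks carried 34.8% and 32.5% of all tags in shared peaks.

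Few shared regions differed by more than 2-fold. Of the 738 regions, 9 (1.22%) were higher in the EB-labelled and 36 (4.88%) in the embryo-labelled input. Once the median was set to 0 the second count was 19, and among the 239 regions with at least 20 tags in each input the counts were 7 and 3. Among these, the regions highest in the EB-labelled input were on contig GL456389.1 (72 and 266 tags, log2 difference 1.77), in an intron of Sfi1 (109 and 400 tags, 1.76), on contig JH584304.1 (72 and 217 tags, 1.47), in Mid1 (20 and 53 tags, 1.29) and in Gm47283 (62 and 154 tags, 1.19). Mid1 spans the boundary of the pseudoautosomal region on the X chromosome, and the Gm47283 region lies at the far end of chromosome Y. A second Mid1 region had 14 and 51 tags.

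The regions lowest in the EB-labelled input lay in Myo3a (81 and 21 tags, -2.07), in Rcc1 (68 and 21 tags, -1.81), at chr13:110743574-110744858 (47 and 20 tags, -1.35), at chr19:37696025-37698091 (145 and 82 tags, -0.94) and in Phf21a (35 and 20 tags, -0.93). The Rcc1 summit lies on Snora73b, a box H/ACA small nucleolar RNA inside the Snhg3 host gene. The Sfi1 region has a neighbour that enters the other list. A peak of 357 tags in an intron of Drg1, the embryo-only peak with the most tags, starts 3715 bases beyond the Sfi1 region, and over both stretches together the inputs held 466 embryo-labelled and 400 EB-labelled tags in peaks.

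**Figure D2:**
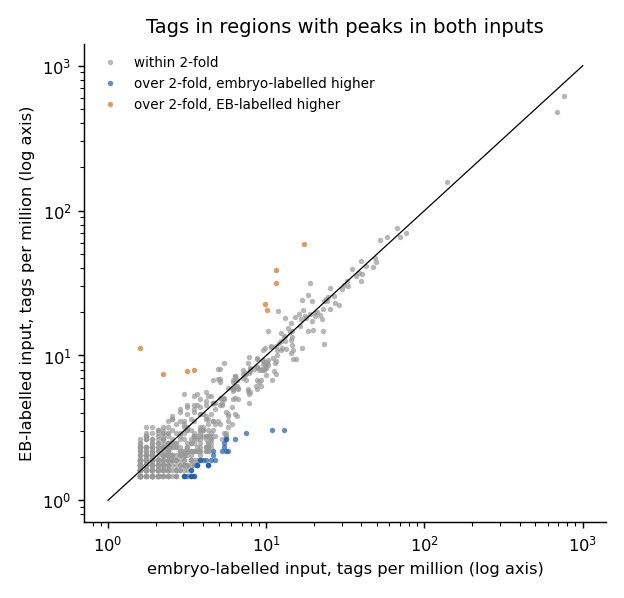
Tags per 1000000 in the 738 regions with peaks in both inputs, embryo-labelled on the x axis and EB-labelled on the y axis, both on log axes. Each point is a region and the line marks equal levels; 9 regions lie above 2-fold and 36 below it, and most points stay near the line over the whole range.

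Small structured RNAs were shared in part. Rpph1, the RNA of ribonuclease P, had 125 embryo-labelled and 102 EB-labelled tags, and Rmrp, the RNA of ribonuclease MRP, had 106 and 77. The nucleolar RNA Rnu3a had 36 and 24 tags, Rn7sk, which holds the elongation factor P-TEFb inactive, had 27 and 12, and Scarna2, a guide RNA of Cajal bodies, had 21 and 17. Embryo-labelled tags were more numerous in each of these, but not in every shared small RNA. The ribosomal RNA gene n-R5s185 had 39 embryo-labelled and 46 EB-labelled tags, and the small nuclear RNA gene Gm22973 had 18 and 20. The interval of the log2 difference lay below 0 for Rn7sk (-2.40 to -0.26) and included 0 for Rnu3a (-1.51 to 0.08). Summits on the nucleolar RNAs Snora52, Snora64 and Snora65, within the ribosomal protein genes Rplp2, Rps2 and Rpl12, occurred in the embryo-labelled input only, with 10, 16 and 14 tags. Snord118, Snord17 and the minor spliceosomal RNA Rnu12 had a summit in the EB-labelled input only, with 15, 13 and 11 tags. In all, 9 small structured RNA genes had a summit in the 2039 embryo-only peaks and 4 in the 1260 EB-only peaks. Near-identical copies of such genes could not be told apart.

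By genic class, most input peaks lay outside exons, and the sets differed mainly in their exonic share. On the Gencode M21 basic annotation, 5.35% of the peaks in the embryo-labelled input only had an exonic summit (4.41 to 6.41%), against 12.8% in the EB-labelled input only (11 to 14.7%) and 10.8% of the shared embryo-labelled peaks (8.65 to 13.3%). Exons cover 3.61% of the assembled genome. The 5′ UTR stood out most, with 5.00% of EB-only summits, 1.42% of embryo-only summits and 0.250% of genome bases. Coding exons held 4.37% of EB-only and 1.72% of embryo-only summits, and 3′ UTRs 2.38% and 1.08%. The gap grew among strong peaks. At scores of 100 or more, where the score rises as the p-value of the peak caller falls, 36.8% of the 57 EB-only peaks were exonic (24.4 to 50.7%) and 5.59% of the 143 embryo-only peaks (2.45 to 10.7%).

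Introns and intergenic sequence held nearly all other peaks. Embryo-only summits were intronic in 46.0% and intergenic in 48.2%, EB-only summits in 45.1% and 41.6%, and the genome is 42.4% intron and 54.0% intergenic. Intronic summits were far from exons in every set, with a median distance of 4018 bases for embryo-only and 3118 bases for EB-only peaks. Within 1 kb of the start of a protein-coding gene lay 4.14% of the embryo-only summits (3.32 to 5.10%) and 8.86% of the EB-only summits (7.34 to 10.6%).

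**Figure D3:**
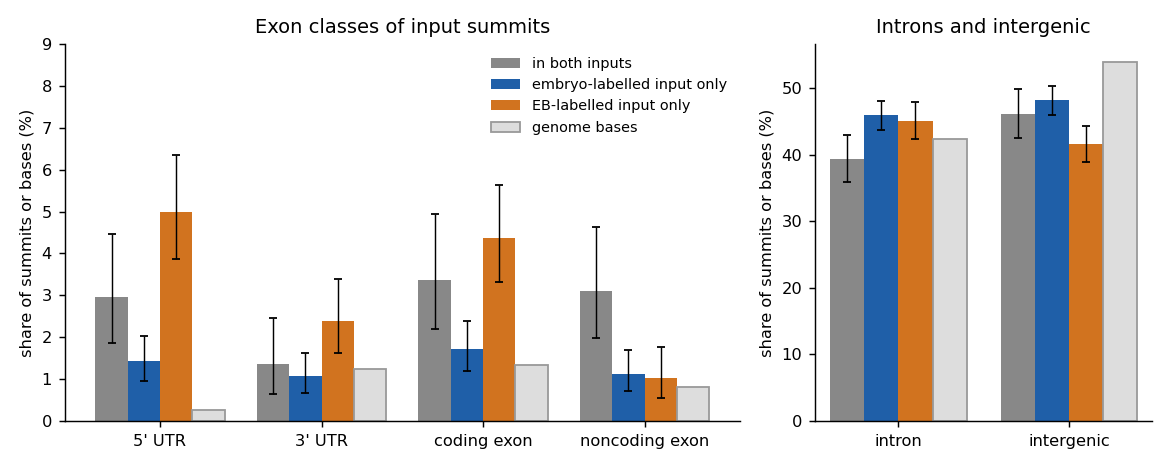
Share of summits by genic class for peaks in both inputs (741 embryo-labelled peaks), in the embryo-labelled input only (2039) and in the EB-labelled input only (1260), with the share of genome bases beside them; the y axes are in % and start at 0 on separate scales. Bars show 95% exact intervals for counting error. EB-only summits exceed embryo-only summits in 5′ UTRs, 3′ UTRs and coding exons.

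Sequence around the summits separated the sets further. At least 50% of a 200-base window was masked as repeat in the reference for 40.7% of the embryo-only summits (38.5 to 42.8%), 24.3% of the EB-only summits (21.9 to 26.8%), 32.2% of the shared embryo-labelled summits and 30.7% of windows placed every 100 kb along the genome. Runs of a 1 to 3 base unit occurred in 14.7%, 9.42% and 12.5% of the 3 sets and in 6.23% of genome windows. The median GC content was 47.0%, 47.5% and 47.0%, against 41.5% in genome windows. The 31 bases at the summit had a single copy for 88.7% of embryo-only, 92.7% of EB-only and 82.6% of shared summits, while 12.4% of shared summits had 2 to 30 copies, the range in which the study still accepted a read. Outside its own locus, ribosomal sequence of the Gm42418 gene was found in 7 shared embryo-labelled windows and in 0 of the 2029 embryo-only and 0 of the 1252 EB-only windows, with exact upper bounds of 0.182% and 0.294%.

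By gene, 1850 genes had a summit in at least 1 input. Of these, 426 (23.0%) had one in both, 837 (45.2%) in the embryo-labelled input only and 587 (31.7%) in the EB-labelled input only. Counting exonic summits alone turned the order round. Of 355 genes with an exonic summit, 70 (19.7%) had one in both inputs, 118 (33.2%) in the embryo-labelled and 167 (47.0%) in the EB-labelled input only. Genes with peaks were long, with a median of 110 kb for genes in both inputs, 66.7 kb for embryo-only and 51.8 kb for EB-only genes, against 17.4 kb over all protein-coding genes.

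The genes with the most tags in embryo-only peaks were mostly reached through introns. Besides Drg1, they were Gm20388 (12 embryo-only peaks with 319 tags), Gm26624 (70 tags), Eif4a2 (55), Dlgap2 (50), Exoc4 (50), Zfhx3 (48), Mdm4 (46), Snhg12 (46) and Gli2 (45). Gm20388 is a gene model of 4435 kb on chromosome 8 that runs across other genes. It also had 4 EB-only peaks with 55 tags, and its 169-tag peak overlaps Def8. The Eif4a2 tags lay in 2 introns, and 25 of them on the nucleolar RNA Gm24616. By number of peaks, Gm20388 came first in both inputs (15 and 7 peaks), followed in the embryo-labelled input by Fgfr2 (5) and in the EB-labelled input by Phf21a and Sfi1 (5 each). Among exonic peaks, Snhg12 came first, followed by Prr36 with 43 tags in a coding exon, Gm4076 with 34 in a noncoding exon and Suz12, a core subunit of Polycomb repressive complex 2, with 26 in its 5′ UTR. Further down were the 14-3-3 gene Ywhag (25 tags), the nuclear exporter Xpo1 (24), the apoptosis inhibitor Mcl1 (24), the nucleolar protein nucleolin (Ncl, 19) and Klf2 (15).

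The genes with the most tags in EB-only peaks were reached mostly through exons. H19, an imprinted growth-restraining noncoding RNA, had 108 tags (15.8 tags per 1000000). Igf2, the imprinted growth factor beside it, had 57 tags in a peak at a 5′ UTR, and peaks of 85 and 40 tags at chr7:142650850-142653374 and chr7:142653435-142654243 were assigned to the overlapping gene model Gm49394 but lay within Igf2 as well. Next came the nuclear RNA-binding protein gene Hnrnpu with 57 tags, the intronic peaks of Gm20388 with 55, which also ranked high among embryo-only peaks, Hnrnpa0 with 46 in 2 peaks, Nnat with 44 in its 3′ UTR, and Sox11, a transcription factor of developing neurons and mesenchyme, with 36 in its coding exon. Gpc6 (36 tags) and Clec18a (35) were reached through introns. Exonic peaks of Marcksl1 (35 tags), the linker histone genes Hist1h1e (32) and H1fx (31), Gnas (31), Set (30) and the neuronal growth cone gene Basp1 (28) followed.

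Gene groups are given as counts, with no test, from lists chosen with earlier results in view. Over all genes with an input peak, 23.0% were in both inputs, 45.2% embryo-only and 31.7% EB-only. All 7 of the 34 imprinted genes that had an input peak had it in the EB-labelled input only, and 6 of them had an exonic summit, namely H19, Igf2, Nnat, Gnas, Cdkn1c and Rtl1. Over all genes with an exonic summit, 47.0% were EB-only. H19, Igf2 and Cdkn1c lie near each other on chromosome 7, so these genes are not all separate loci. Cdkn1c, a cell cycle inhibitor, had 17 tags and Rtl1, a placental gene of the Dlk1 domain, had 16. On the neural development list, 7 of 11 genes with a peak were EB-only (Ank2, Crmp1, Lrp2, Meis2, Nnat, Robo1 and Sox11), 3 were embryo-only (Auts2, Dcc and Nav1) and 1 was in both (Nav2). Of these only Nnat and Sox11 had exonic summits. Erythroid genes gave Hba-x and, with an intronic peak of 11 tags, Epb42, both EB-only. Of the mesenchyme and extracellular matrix list, Lama1 was in both inputs, Itgb1 and Lamc1 were embryo-only with an exonic summit each, and 0 genes were EB-only. Of the muscle list, Myh7 was embryo-only and Atp2a2 EB-only. Replication-dependent histones were EB-only for Hist1h1b, Hist1h1e and Hist3h2ba and embryo-only for Hist1h1d. No Hox gene of 45 had a summit in either input.

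Among housekeeping groups, of the ribosomal protein genes, 5 of 10 with a peak were in both inputs, 3 in the embryo-labelled and 2 in the EB-labelled input only. Translation factor genes divided into 4, 3 and 3 of 10, splicing factor genes into 3, 4 and 4 of 11, and chromatin regulators into 5, 3 and 3 of 11. Among splicing factors, Sfpq had 32 embryo-labelled and 45 EB-labelled tags and Hnrnpd 19 and 37. Ybx1, a cold shock domain RNA-binding protein, had 41 and 26 tags, Pabpc1 32 and 23, and Arid1a, a subunit of the BAF complex, 32 and 55 in its shared region. Nuclear noncoding RNAs were mostly shared (4 of 5), and Malat1 had 97 and 65 tags. The cytoskeleton list stood at 1 in both (Actb, 27 and 36 tags), 5 embryo-only and 7 EB-only of 13. The endothelial list gave only intronic peaks, in both inputs for Flt1 and in the embryo-labelled input only for Pecam1 and Tek.

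The peaks of the pull-down libraries were then set against the 2 inputs. Their lists differ in length, with 1449 and 1309 peaks in embryo eCLIP-1 and eCLIP-2 and 1256 and 1955 in EB eCLIP-1 and eCLIP-2. A longer list can overlap more input peaks. Many of the shared input peaks overlapped an eCLIP peak, 25.6% in each embryo eCLIP library and 24.4 and 25.5% in the EB eCLIP libraries, taken over the embryo-labelled list. Peaks of 1 input only overlapped far fewer. Of the embryo-only input peaks, 2.06 and 2.45% overlapped a peak of embryo eCLIP-1 and eCLIP-2, and 2.5 and 2.99% a peak of EB eCLIP-1 and eCLIP-2. Of the EB-only input peaks, 4.29 and 4.68% overlapped the embryo eCLIP libraries and 2.30 and 2.94% the EB eCLIP libraries. In both sets the intervals of single libraries of the 2 tissues overlapped in part. With a peak in either replicate counted, EB-only peaks stood at 5.95% for embryo eCLIP (4.71 to 7.40%) and 3.33% for EB eCLIP (2.41 to 4.48%), and embryo-only peaks at 2.99% (2.30 to 3.83%) and 3.58% (2.82 to 4.48%), where the intervals overlapped. The headers of the eCLIP files name no control, while the methods describe peaks called against input, so whether input signal was already taken out of these peaks is not settled.

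Exonic peaks overlapped the eCLIP libraries more often. Of the 161 exonic EB-only peaks, 24.8 and 27.3% overlapped embryo eCLIP peaks (18.4 to 32.3% and 20.6 to 34.9%) and 10.6 and 14.3% overlapped EB eCLIP peaks (6.27 to 16.4% and 9.28 to 20.7%). For the 109 exonic embryo-only peaks the shares were 12.8 and 13.8% in the embryo (7.20 to 20.6% and 7.91 to 21.7%) and 17.4 and 20.2% in the EB libraries (10.8 to 25.9% and 13.1 to 28.9%), with widely overlapping intervals. With either replicate counted, the exonic EB-only shares were 35.4% for embryo eCLIP (28.0 to 43.3%) and 15.5% for EB eCLIP (10.3 to 22.1%). Intronic and intergenic peaks of 1 input only lay between 1.10 and 2.03% in every single eCLIP library. With either replicate counted, the embryo-only shares were 2.08% for embryo and 2.40% for EB eCLIP, and the EB-only shares 1.65% and 1.56%. Some peaks overlapped the eCLIP of only 1 tissue. Of all EB-only input peaks, 40 overlapped embryo eCLIP alone and 7 overlapped EB eCLIP alone, whereas of the embryo-only peaks 16 overlapped embryo eCLIP alone and 28 EB eCLIP alone. With both replicates of the tissue required, the counts were 16 and 2 for EB-only and 4 and 9 for embryo-only input peaks. None of these counts was adjusted for the lengths of the eCLIP lists, of which that of EB eCLIP-2 is the longest.

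Named genes stood behind these counts. Of the 16 EB-only input peaks held by both embryo eCLIP libraries and neither EB eCLIP library, 1 was intergenic and the others lay in Basp1, Eif4g2, Eif4h, Fscn1, H1fx, Hba-x, Hnrnpa0, Igf2, Gm49394 (2 peaks), Marcksl1, Nefm, Nnat, Snx5 and Sox11. The Snx5 peak is the one with its summit on Snord17. Nefm encodes a neurofilament subunit and Fscn1 an actin-bundling protein. Of the 9 embryo-only input peaks held by both EB eCLIP libraries and neither embryo library, 2 were intergenic and the others lay in Cdca7l, Eif4a2, Klf2, Lamc1, Msl2, Pcbp2 and Suz12. Lamc1 encodes a laminin chain and Pcbp2 a poly(C)-binding protein. In the direction of the labels, the embryo-only input peaks held by the embryo libraries lay in Tpt1, in Slc22a22 and at 2 intergenic positions, and the EB-only input peaks held by the EB libraries lay in Ddx17 and Akap9. Turned round, 161 peaks of embryo eCLIP-1 were also in embryo eCLIP-2 and in neither EB library, and 13 of them (8.07%, 4.37 to 13.4%) met an EB-only input peak and 4 (2.48%, 0.681 to 6.24%) an embryo-only one. For 225 such peaks of EB eCLIP-1 the counts were 2 (0.889%, 0.108 to 3.17%) and 9 (4%, 1.85 to 7.46%).

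**Figure D4:**
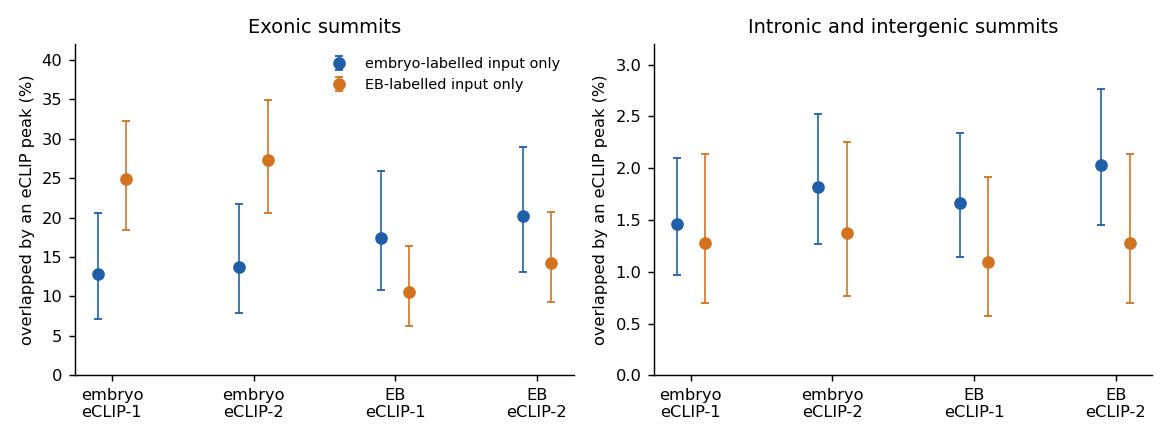
Share of peaks in 1 input only (y axes, %, separate scales from 0) that overlap a peak of each of the 4 eCLIP libraries (x axis), for exonic summits on the left and intronic or intergenic summits on the right. Points are shares with 95% exact intervals for counting error. On the left, EB-only input peaks reach 24.8 and 27.3% in the embryo eCLIP libraries and 10.6 and 14.3% in the EB eCLIP libraries.

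By chromosome, chromosome 8 stood apart in the embryo-labelled input. It held 223 of the 2029 embryo-only peaks on nuclear chromosomes, 10.99% (9.66 to 12.4%), although it is 4.74% of the sequence. Its density of 1.78 peaks per Mb was 2.26 times that of the other autosomes together (interval 1.96 to 2.60), whose single values ran from 0.519 on chromosome 14 to 1.02 on chromosome 7. Of the EB-only peaks, 83 of 1253 (6.62%) lay on chromosome 8, 1.31 times the other autosomes (1.03 to 1.63). Of the shared peaks the ratio was 0.948 (0.651 to 1.34). The embryo-only peaks covered the whole length of chromosome 8, with 10 to 25 in each of 13 segments of 10 Mb.

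Other properties of these chromosome 8 peaks were as follows. Their median was 12 tags against 11 on the other autosomes, 38.6% of their windows were repeat-masked against 40.7%, 90.5% of summits had a single copy against 88.7%, and 3.14% were exonic against 5.55%. In the 34 shared regions of chromosome 8 the median log2 difference was -0.39 (EB-labelled over embryo-labelled), with 27 of 34 regions below 0, against a median of -0.12 in the 646 regions of the other autosomes. Among single autosomes only chromosome 7 had a lower median, -0.42. Among embryo-only peaks at scores of 100 or more, the share on chromosome 8 was 7.80% (3.96 to 13.5%). Library and tissue cannot be told apart with 1 library a group.

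The sex chromosomes held few peaks. Density on chromosome X was 0.171 times that of the autosomes other than 8 among embryo-only peaks and 0.194 times among EB-only peaks, and 0.579 times among shared embryo-labelled peaks. Chromosome Y held 6 EB-only peaks, of 69, 53, 29, 24, 15 and 10 tags, and 1 embryo-only peak of 22 tags. The pair at chrY:258907-259959 and chrY:11857741-11858434 were the strongest EB-only peaks outside genes on assembled chromosomes. In the 4 shared regions of chromosome Y the median log2 difference was 0.45.

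**Figure D5:**
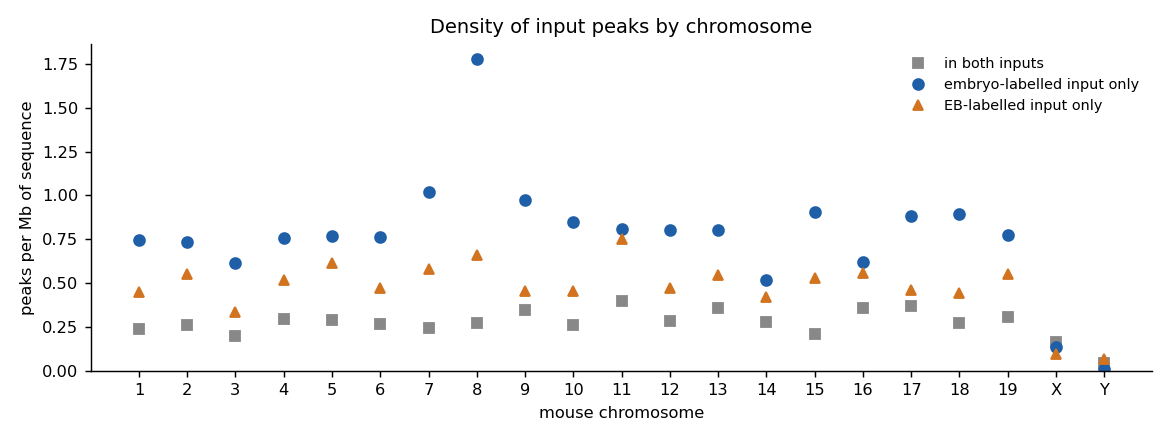
Peaks per Mb of sequence (y axis, from 0) on each mouse chromosome (x axis) for peaks in both inputs, in the embryo-labelled input only and in the EB-labelled input only, 1 point per chromosome and set. Chromosome 8 lies at 1.78 peaks per Mb in the embryo-only set, above the next autosome at 1.02, and chromosomes X and Y have the lowest values in each set.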

How the data were processed

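The authors trimmed reads with cutadapt, removed those that matched repeats, used STAR 2.5.2b to place the remaining reads on GRCm38, at up to 30 positions each, and called peaks with MACS 1.4.2, the versions being those of the submitters' processing notes. The deposited files give for each peak a count of tags, a score (a multiple of the negative log10 of the p-value) and a ratio (fold enrichment over the local background). Per the file headers no control was used, although the methods describe peak calling with a control and a threshold relative to input. The p cutoff was 1e-05 and the tag size was 75. Here summits were placed on Gencode M21 basic, with UTRs before coding exons, these before noncoding exons and introns last, and with protein-coding genes first. Unplaced contigs have no class or sequence. Tags were divided by the tags after duplicate removal and given per 1000000. All peaks on assembled chromosomes ended within the GRCm38.p6 lengths. Python 3.11.15, numpy 2.4.6 and scipy 1.17.1 were used, and the code was tested on simulated data. Named genes were those with the most tags or peaks in each set and, for each list, the 4 with the most tags. Other names, such as exonic peaks further down, were chosen after their values were seen. Members and lists were chosen with earlier results of these data known. Alternatives varied the overlap, the peaks, the placing of peaks and the scaling.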

Additional observations from a re-analysis of the deposited data

How the results depend on the processing

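Of 91 alternative values of 22 results, 48 stayed within the interval or within 1.5 times the count of the main value and 43 moved. 4 alternatives were chosen after seeing the data. No paired analysis was possible because each input is 1 library and no result comes from a test. The overlap, embryo-labelled and EB-labelled, was 22.6% and 31.4% with summits within 100 bases, 50.5% and 68.6% with scores of at least 100, and 34.1% and 34.0% with equal numbers of peaks. The exonic share was 19.7%, 11.8% and 20% for shared, embryo-only and EB-only peaks when any base counted, and 36.8% for EB-only peaks with scores of at least 100. Genes in both, embryo-only and EB-only numbered 110, 112 and 69 at that score, and 70, 118 and 167 with exonic summits. Shared regions past 1.5-fold numbered 30 higher and 132 lower in the EB-labelled input, and past 4-fold 1 and 1. The count higher in the embryo-labelled input was 19 with the median set to 0 and 3 with at least 20 tags in each input.

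Overlap of embryo-only peaks with embryo eCLIP was 2.99% with either replicate, 2.06% to 2.45% with 1 replicate left out, 7.69% with scores of at least 100, 19.3% for exonic summits and 1.52% with both replicates. With EB eCLIP these values were 3.58%, 2.5% to 2.99%, 9.09%, 24.8% and 1.91%. For EB-only peaks they were 5.95%, 4.29% to 4.68%, 24.6%, 35.4% and 3.02% with embryo eCLIP, and 3.33%, 2.30% to 2.94%, 10.5%, 15.5% and 1.90% with EB eCLIP. The share on chromosome 8 was 7.80% of embryo-only and 1.75% of EB-only peaks at scores of at least 100. At the middle of the peak, 79.4% of shared and 85.6% of embryo-only stretches had a single copy. The cause of these moves was not tested.

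Depth limits the comparison: with peaks of 10 tags or more, a peak in 1 input only does not show that the other input lacked reads there. Contigs were not annotated, and peaks carry no strand.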
